A study of Drosophila melanogaster with 10 samples.

Results

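The loss of transposon piRNAs on silencing of a source locus, flamenco, was set against the loss on depletion of a biogenesis factor, Armitage (Armi), in OSCs, a cultured somatic cell line from the Drosophila melanogaster ovary. The comparison used all 10 libraries of the series and, of the 122 transposon consensus elements in the files, the 66 on the antisense strand and the 37 on the sense strand whose mean coverage was at least 10 in both control groups. These minima and the elements they leave follow from control cells alone. For flamenco silencing, OSCs of a clonal line with 14 UAS sites before the promoter of flamenco on both alleles were transfected with plasmids for Gal4 fused to the silencing domain of Panoramix (Gal4-Panx-IDR; 1 library at day 6 and 1 at day 7, which the study treats as replicates) or for Gal4 alone (2 libraries, with no harvest day in the labels). Transfection was repeated after 48 h in both groups. Cells with the Panoramix domain were sorted for low levels of GFP, a reporter silenced together with the locus, and Gal4 cells were not sorted, so sorting and silencing cannot be told apart. For Armi depletion, OSCs labelled wildtype received an siRNA against armitage (siArmi, 3 libraries) or against luciferase (siLuc, 3 libraries), again after 48 h, and were harvested at 96 h. Transcript levels of armitage, of flamenco and of markers of the cell type were not analysed here. The study describes small RNA tracks of a browser view, without naming their libraries, as averages of biological replicates. No label ties the libraries of a group to separate cultures, so the p-values measure the spread between these libraries, which may be technical.

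Argonaute-bound small RNAs were purified and sequenced, and the deposited value is the coverage of each consensus position and strand per 1000000 miRNA reads. The values imply 87066 to 110492 miRNA reads in the Gal4, 117444 to 151205 in the Gal4-Panx-IDR, 1297626 to 1799370 in the siLuc and 586560 to 875165 in the siArmi libraries. Each experiment was therefore read against its own control. On the antisense strand, coverage was higher in Gal4 than in siLuc cells by a median ratio of 1.77 over the 66 elements, with a range of 0.263 (McClintock) to 3.03 (G2).

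piRNAs are small RNAs of the germline and its supporting somatic cells that guide Piwi-clade Argonaute proteins to transposon transcripts. In the somatic cells of the fly ovary most of them are cut from long single-stranded transcripts of piRNA clusters. The main one is flamenco, which is transcribed from a single promoter and holds many transposon remnants, mostly of Gypsy-type LTR retrotransposons and mostly antisense to the element. In the dm6 annotation the flamenco transcript lies on chromosome X from 21631891 to 21790731 (plus strand, non-coding RNA). The study reports a gap in dm6 within this locus and a strongly divergent structure in OSCs. There, piRNA loss on silencing reached further from the promoter than this annotated length. Armitage, an RNA helicase encoded by armi on chromosome 3L from 3461317 to 3466314 (plus strand), acts in the processing of such precursors whichever locus they come from. Removing a source and removing a processing factor therefore act at different steps of the same pathway.

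For each element and strand the ratio of the treated to the control group mean was taken, and this ratio was divided by the median ratio of all elements with a control mean of at least 10 on that strand. The quotient, here called the relative ratio, is 1 for an element that was lost as much as the median element, below 1 for one lost more and above 1 for one lost less. The medians themselves differed widely. On flamenco silencing, 63.2% of antisense coverage was left at the median of 75 elements (60.3% and 65.8% in the 2 libraries taken alone). On Armi depletion, 4.70% was left at the median of 66 elements (4.49% to 4.91% in the 3 libraries). On the sense strand the medians were 81.8% of 54 elements and 4.35% of 38 elements.

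Relative to these medians, antisense piRNAs of different elements were lost very unequally on flamenco silencing and far more equally on Armi depletion. Over the same 66 elements the relative ratio ran from 0.367 (gypsy3_new) to 13.9 (roo) on flamenco silencing, and from 0.581 (G2) to 2.37 (Repbase_FB4) on Armi depletion. The standard deviation of the log2 relative ratio across elements was 1.10 on flamenco silencing and 0.35 on Armi depletion. Control libraries set against the rest of their own group gave a standard deviation of 0.21 in Gal4 and of 0.05 to 0.06 in siLuc. In both experiments the elements thus varied by more than control libraries do. The siArmi values rest on fewer reads than the siLuc ones, with as few as 11 for an element in a library. The part of counting noise in the spread was not tested. On flamenco silencing 17 elements had a relative ratio below 0.5 and 6 above 2, against 0 and 1 on Armi depletion. The position of an element in one experiment bore little relation to that in the other: Pearson's r of the 2 log2 relative ratios was 0.12 and Spearman's rho 0.06 across the 66 elements, which share their libraries and so are no independent replicates.

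**Figure D1:**
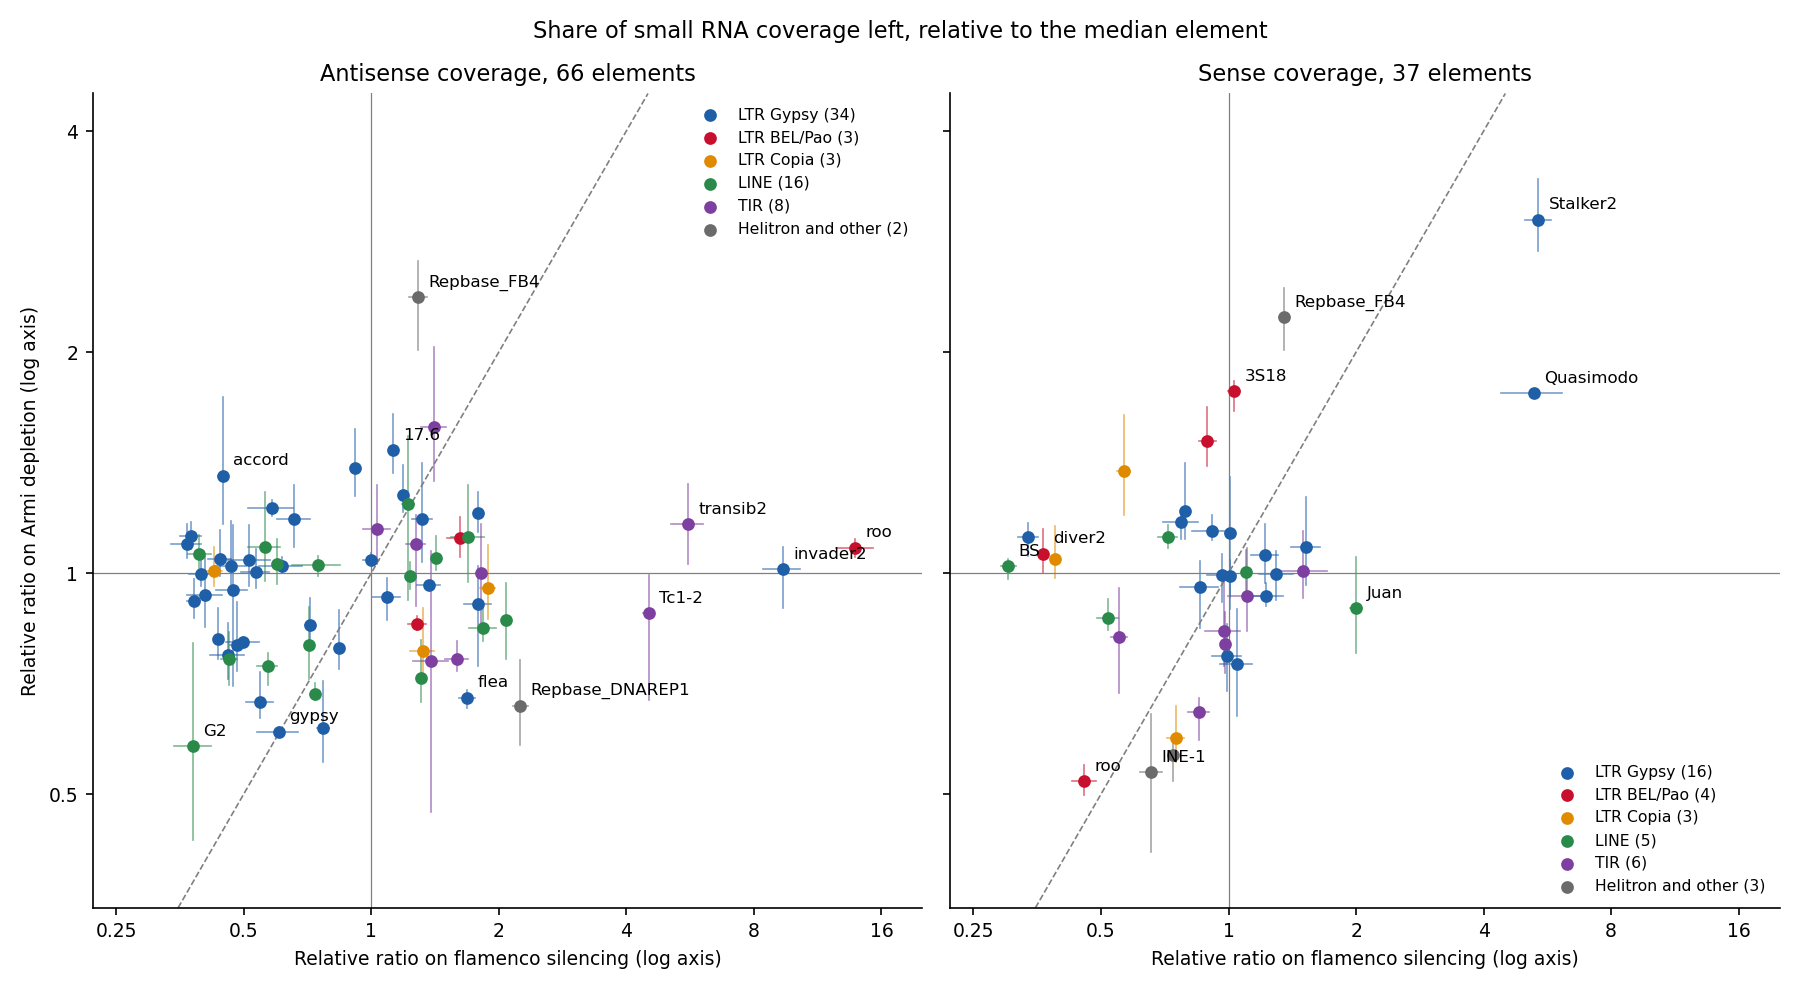
Relative ratio on Armi depletion (vertical, log axis) against relative ratio on flamenco silencing (horizontal, log axis) for each element on the antisense (left, 66 elements) and sense strand (right, 37 elements). Points are ratios of group means coloured by class, bars span the libraries (2 Gal4-Panx-IDR, 3 siArmi), and the dashed line marks equal relative loss; antisense points spread from 0.367 to 13.9 along the horizontal and from 0.581 to 2.37 along the vertical axis.

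The difference between the log2 relative ratios of the 2 experiments was tested for each element with limma. Antisense coverage of 26 of the 66 elements was lost more on flamenco silencing than on Armi depletion, relative to the medians (39.4% of those tested), and that of 13 was lost less (19.7%), at a Benjamini-Hochberg adjusted p below 0.05. In all 39 the Gal4-Panx-IDR libraries lay apart from the siArmi libraries on the relative scale. Libraries lay apart on the lower side for 48.5% and on the higher side for 39.4% of all elements tested. The direction of an element near the centre depends on where the centre is put. With the median taken over the 66 shared elements the split was 20 lower and 18 higher, with the median over both strands 30 and 8, and with scaling to total transposon coverage without roo 11 and 21. The same 11 elements were lower under all of these and under a median on the log2 scale with 0.1 added. They were accord, Dm88, G6, gtwin, gypsy10_new, gypsy3_new, gypsy4, HMS-Beagle2, rover, Tabor and ZAM. The same 8 were higher (Cr1a, flea, invader2, jockey, Repbase_DNAREP1, roo, Tc1-2 and transib2). With 10 added before that log2 median, gypsy10_new (-0.27), G6 (-0.35) and HMS-Beagle2 (-0.19) no longer passed. With the median coverage over positions, accord (-2.44) and gypsy3_new (-2.66) no longer passed, and Dm88 turned sign (0.44). Without the day 6 library 14 elements were lower and 12 higher. limma estimated an infinite prior for the spread in this fit and in that of the sense strand. The error of each element is therefore the one fitted to its level of coverage. It ignores how far the element's own replicates lay apart.

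On the relative scale, the elements lost most on flamenco silencing against Armi depletion were Gypsy-type retrotransposons together with the LINE G6 and the Copia-type Dm88. Antisense coverage of gypsy10_new was 1997 and 2889 in the Gal4 libraries, 547 and 612 in the Gal4-Panx-IDR libraries, 1611, 1626 and 1172 in siLuc and 81.25, 74.6 and 77.0 in siArmi. That left 23.7% on flamenco silencing and 5.28% on Armi depletion, or relative ratios of 0.354 and 0.396 in the Gal4-Panx-IDR libraries against 1.18, 1.08 and 1.11 in the siArmi libraries. The log2 difference was -1.57 ± 0.29 (SE; limma, adjusted p = 1.27e-06). gypsy10_new was kept slightly better than the median element without Armi and among the worst without flamenco.

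For gypsy3_new, antisense coverage went from 125 and 180.1 to 32.4 and 38.3 on flamenco silencing and from 93.6, 92.5 and 67.0 to 4.62, 4.17 and 4.27 on Armi depletion (log2 difference -1.60 ± 0.27 SE; limma, adjusted p = 6.26e-08). HMS-Beagle2 was left at 25.1% and 4.70% (difference -1.33), G6 at 24.8% and 4.99% (-1.45) and Dm88 at 26.9% and 4.73% (-1.30). The largest difference was that of accord (-1.67 ± 0.36 SE; limma, adjusted p = 2.87e-05), a weakly covered element whose relative ratios were 0.457 and 0.435 against 1.74, 1.17 and 1.16. Its 2 Gal4 libraries lay at 19.4 and 37.2, the widest gap among the 6 elements of this group. In each of the 6 no Gal4-Panx-IDR library reached any siArmi library on the relative scale.

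412's and mdg1's antisense piRNAs were among the most abundant in both controls. Relative to the medians, both were lost more on flamenco silencing than on Armi depletion, while less of their coverage was left on Armi depletion. 412's antisense coverage was 9101 and 9861 in Gal4, 3591 and 4296 in Gal4-Panx-IDR, 8799, 8692 and 6411 in siLuc and 495, 431 and 406 in siArmi cells. Its relative ratios were 0.599 and 0.717 against 1.32, 1.15 and 1.08 (log2 difference -0.86 ± 0.26 SE; limma, adjusted p = 0.00242), and without the day 6 library the difference was -0.67 and no longer passed. For mdg1, a Gypsy-type retrotransposon of the same lineage, the relative ratios were 0.456 and 0.576 against 1.16, 1.00 and 0.961 (difference -1.03; limma, adjusted p = 0.000583). springer, whose small RNAs in OSCs are mainly sense, was left at 27.5% and 3.82% of its antisense coverage (difference -0.93; limma, adjusted p = 0.00191).

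At the other end stood elements whose antisense coverage was as high or higher after flamenco silencing and yet was lost to the usual extent without Armi. roo, a BEL/Pao-type retrotransposon, had antisense coverage of 1238 and 1390 in Gal4, 10410 and 12667 in Gal4-Panx-IDR, 1225, 1169 and 869 in siLuc and 56.9, 53.7 and 55.5 in siArmi cells. Its relative ratio was 12.5 and 15.3 on flamenco silencing and 1.11, 1.05 and 1.08 on Armi depletion (log2 difference 3.66 ± 0.29 SE; limma, adjusted p = 3.03e-29). The same was seen at lower levels for invader2, a Gypsy-type element, which went from 40.5 and 49.1 to 238 and 292 on flamenco silencing and from 31.8, 31.8 and 23.6 to 1.49, 1.44 and 1.23 on Armi depletion (difference 3.10 ± 0.28 SE; limma, adjusted p = 5.48e-24).

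DNA transposons of the terminal inverted repeat (TIR) type, transib2 and Tc1-2, followed. transib2 went from 18.98 and 23.9 to 69.1 and 82.4 on flamenco silencing, and from 11.7, 11.4 and 8.48 to 0.566, 0.509 and 0.655 on Armi depletion (difference 2.04 ± 0.33 SE; limma, adjusted p = 3.26e-08). Tc1-2 went from 15.6 and 17.9 to 46.5 and 49.3, and from 12.2, 11.9 and 8.56 to 0.509, 0.345 and 0.501 (difference 2.08 ± 0.35 SE; limma, adjusted p = 6.26e-08). Both stood close to the minimum coverage of 10 in siLuc cells, and the siArmi library with the fewest reads held at least 26 reads of transib2 and 14 of Tc1-2. Of the 15 elements with a ratio of at least 1 on flamenco silencing, these 4 were the ones above 2.

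flea and Repbase_DNAREP1 stood at or above the control level on flamenco silencing and were lost beyond the median on Armi depletion. flea, of the mdg1 lineage, went from 923 and 1107 to 1126 and 1036 on flamenco silencing, so that the libraries overlapped, and from 502, 488 and 368 to 14.8, 14.5 and 13.96 on Armi depletion. Its relative ratios were 1.76 and 1.61 against 0.694, 0.680 and 0.655 (log2 difference 1.30 ± 0.29 SE; limma, adjusted p = 6.91e-05). Repbase_DNAREP1, a repeat of the Helitron group, went from 161 and 174 to 248 and 229 and from 90.7, 88.5 and 70.5 to 2.49, 2.28 and 2.98 (difference 1.71 ± 0.27 SE; limma, adjusted p = 1.03e-08). Among TIR elements 1360's difference was 0.95 (limma, adjusted p = 0.00221), and copia passed with 0.82 (limma, adjusted p = 0.0191). For copia the call was lost without the first Gal4 library (0.73), the day 7 library (0.70) or the first siArmi library (0.72).

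**Figure D2:**
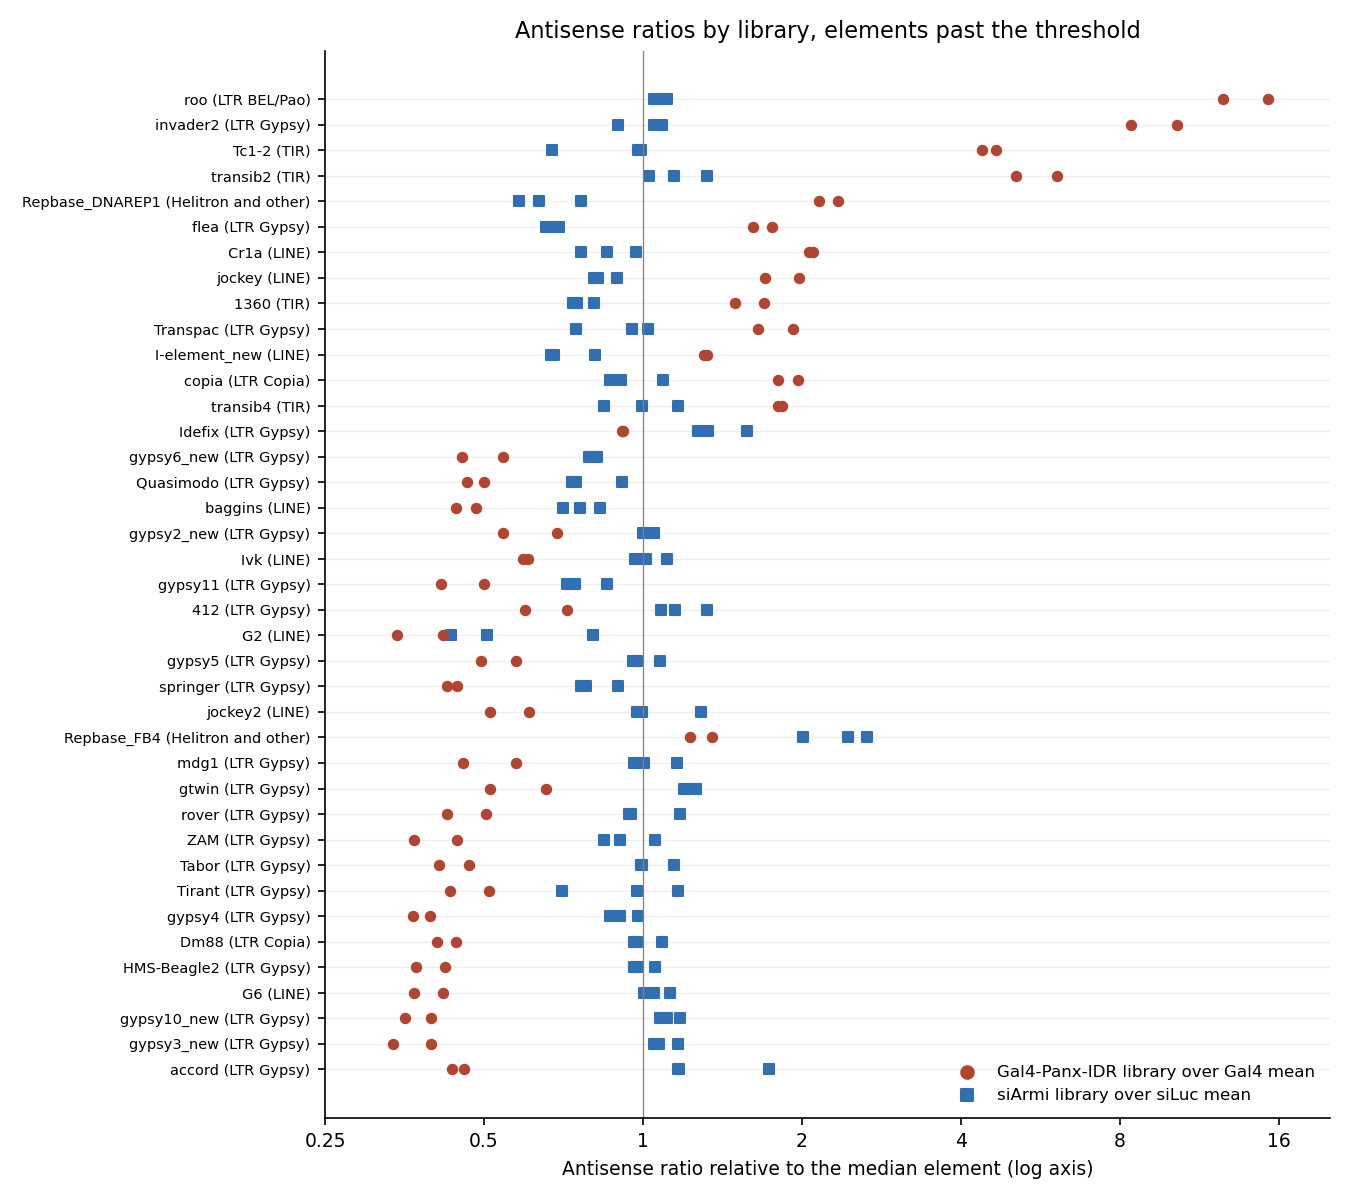
Relative antisense ratio of each Gal4-Panx-IDR library (circles) and each siArmi library (squares) on a log axis, for the 39 elements past the threshold, ordered by the limma difference. roo at the top has circles at 12.5 and 15.3 and squares at 1.05 to 1.11; accord at the bottom has circles at 0.435 and 0.457 and squares at 1.16 to 1.74.

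Other named elements did not pass the test of the difference. For gypsy, the retrovirus-like element after which the class is named, antisense coverage went from 5461 and 5590 to 1877 and 2344 on flamenco silencing and from 3083, 2947 and 2151 to 78.2, 76.7 and 79.2 on Armi depletion. Its relative ratios of 0.537 and 0.671 overlapped those of 0.609, 0.598 and 0.618, with a log2 difference of -0.04 ± 0.28 (SE; limma, adjusted p = 0.906). The LINE Doc had relative ratios of 0.739 and 0.737 against 0.710, 0.674 and 0.671 (difference 0.09 ± 0.30 SE; limma, adjusted p = 0.81). HMS-Beagle lay at the median in both, with 1.04 and 0.959 against 1.07, 1.03 and 1.03 (difference -0.08 ± 0.30 SE; limma, adjusted p = 0.829). mdg3 (0.54 ± 0.27 SE; limma, adjusted p = 0.0691) and Helena, the LINE with the most antisense coverage over both controls (-0.48 ± 0.29 SE; limma, adjusted p = 0.148), did not pass. With standard errors of 0.27 to 0.30 these results do not show equal losses.

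By class, Gypsy-type elements had the lowest median of the antisense relative ratio on flamenco silencing and TIR elements one above 1, while the class medians with 3 or more elements lay between 0.926 and 1.08 on Armi depletion. The median relative ratio of the 34 Gypsy-type elements was 0.594 on flamenco silencing (0.525 at day 6, 0.663 at day 7) and 1.00 on Armi depletion (0.949 to 1.06 in the 3 libraries). Of the 34, 19 were lower and 3 higher in the test of the difference, or 55.9% and 8.82%, beside 39.4% and 19.7% of all elements. The 16 LINEs had medians of 0.743 and 0.926, with 5 lower and 3 higher. The 8 TIR elements had medians of 1.501 and 1.05, with 0 lower and 4 higher, and their lowest relative ratio on flamenco silencing was 1.03. The 3 BEL/Pao elements had medians of 1.62 and 1.08, and the 3 Copia-type elements of 1.32 and 0.956. These are class medians without a test, and the classes with 2 or 3 elements rest on those alone. A change of the centre moves all classes of a strand by the same amount: scaled to total coverage without roo, the median log2 difference was -0.25 for Gypsy-type elements and 1.33 for TIR elements, against -0.71 and 0.86 with the medians used here.

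Among the Gypsy-type elements, errantiviruses carry an envelope gene and are expressed in somatic follicle cells. All 12 errantiviruses in the list were tested on the antisense strand, and 8 were lower and 0 higher (gtwin, gypsy5, Idefix, Quasimodo, rover, springer, Tirant and ZAM were lower), or 66.7% and 0%, beside 55.9% and 8.82% of the Gypsy-type and 39.4% and 19.7% of all elements, with median relative ratios of 0.559 and 0.955. Of the 8 lower ones, gtwin, rover and ZAM are in the list above of elements that stayed lower under other centres. The study reports Tirant as absent from its OSC assembly, and the origin of the reads assigned to Tirant was not tested. Among the errantiviruses, opus had a relative ratio of 1.37 on flamenco silencing, and 17.6's was 1.13. Of the 6 elements of the mdg1 lineage, 2 were lower (412's and mdg1's antisense coverage) and 1 higher (flea), or 33.3% and 16.7%, close to the shares of all elements, with medians of 0.687 and 0.821. The other 3, blood, Stalker and Stalker2, did not pass. The difference between the lists was not tested.

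**Figure D3:**
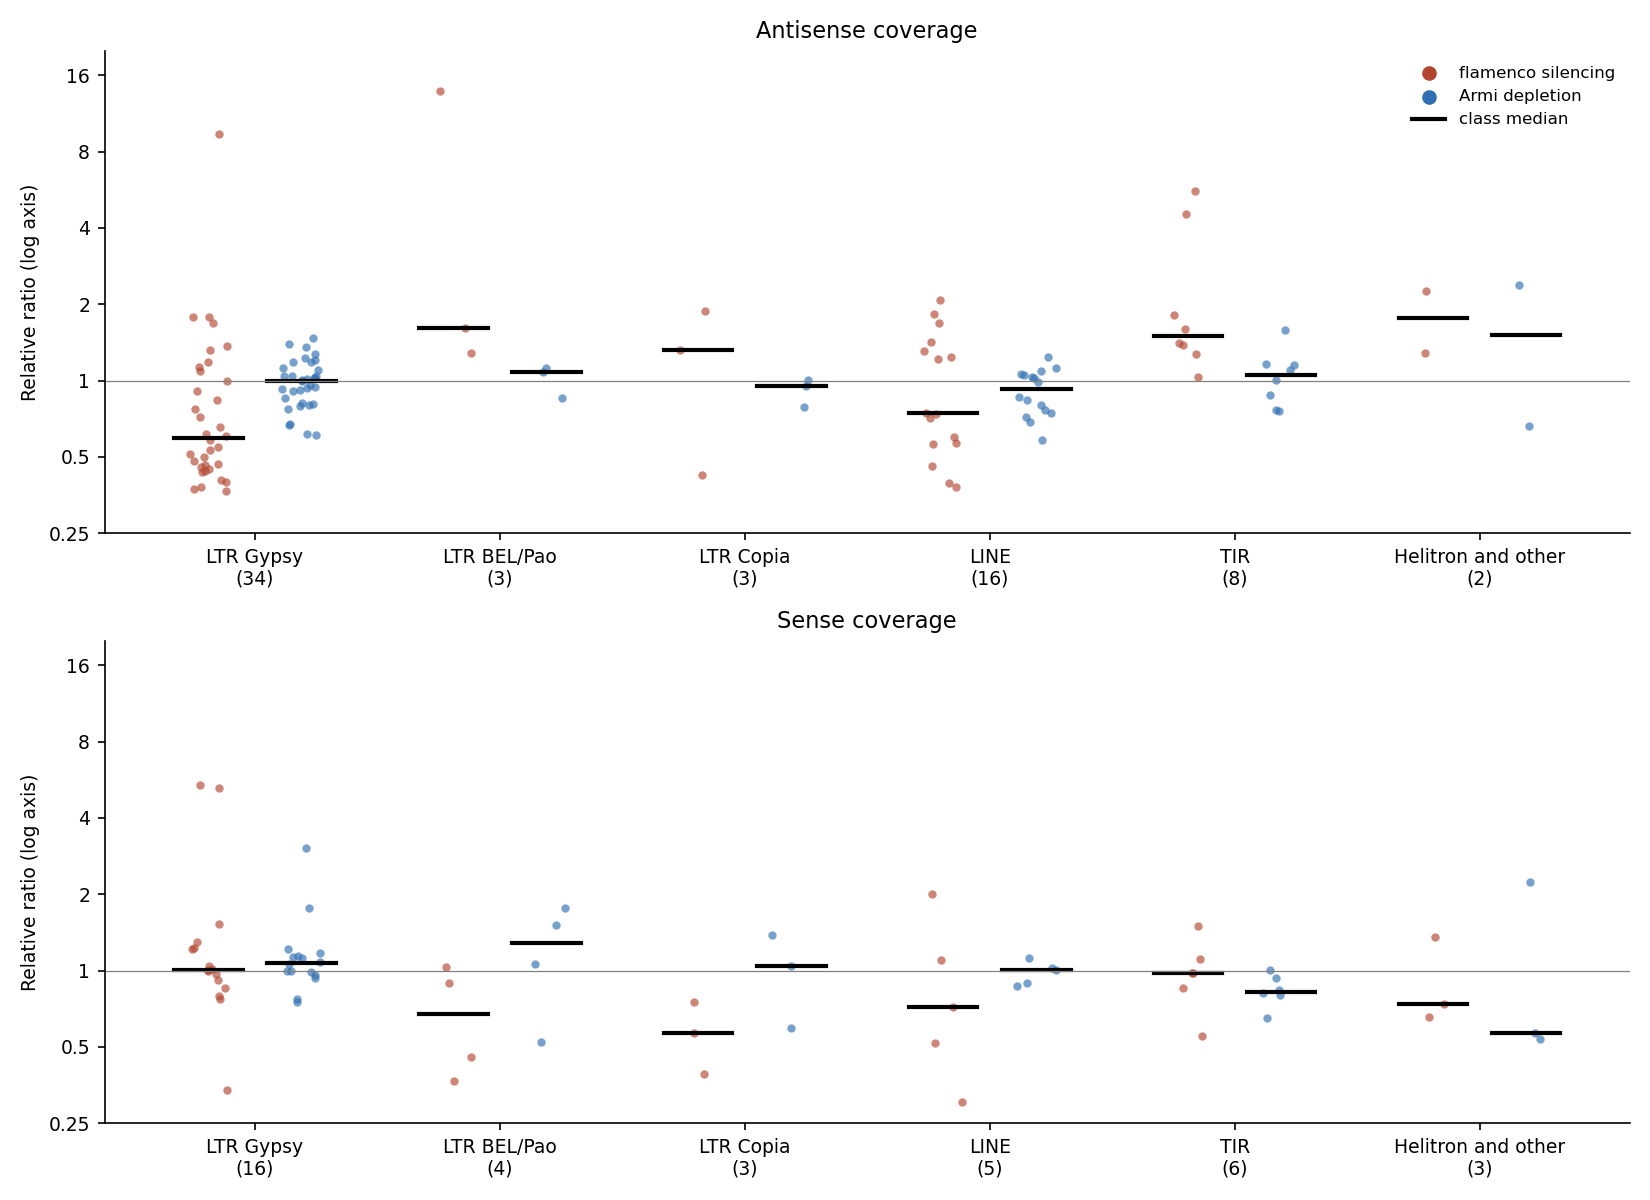
Relative ratio of each element tested (log axis) by transposon class on the antisense (top) and sense strand (bottom), for flamenco silencing and Armi depletion. Bars mark class medians, and the number of elements tested is in brackets. The Gypsy-type median on flamenco silencing is 0.594 on the antisense and 1.01 on the sense strand, and the antisense medians on Armi depletion lie between 0.926 and 1.08 for the classes with 3 or more elements.

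On the sense strand, the class median of the Gypsy-type elements tested, 16 of the 50 in the files, lay near 1 in both experiments. It does not cover Gypsy-type elements left out by the control minimum. Among those, sense coverage of mdg1, Tabor, gypsy and blood rose on flamenco silencing (values are given below), while that of GATE and McClintock fell. The 16 Gypsy-type elements tested had medians of 1.01 on flamenco silencing and 1.07 on Armi depletion, with 3 lower and 2 higher. The 3 Copia-type elements had medians of 0.565 and 1.05, with 2 lower and 0 higher, and the 4 BEL/Pao elements of 0.674 and 1.29, with 3 lower and 0 higher. The 5 LINEs had medians of 0.718 and 1.00, with 3 lower and 1 higher. The 6 TIR elements had medians of 0.977 and 0.826, with 1 lower and 0 higher. The spread across the 37 elements was again wider on flamenco silencing, with a standard deviation of 0.88 on the log2 scale against 0.53 on Armi depletion, and 0.23 and 0.05 to 0.06 in the Gal4 and siLuc control libraries. Of the 37 elements, 13 were lower (35.1%) and 3 higher (8.11%) on flamenco silencing relative to Armi depletion. Libraries lay apart on the lower side for 40.5% and on the higher side for 37.8% of all 37.

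The 6 elements with the largest losses of sense piRNAs on flamenco silencing relative to Armi depletion were not the ones found on the antisense strand, except gypsy3_new. Sense coverage of the LINE BS went from 79.8 and 126 to 24.4 and 26.6 on flamenco silencing and from 59.2, 58.9 and 43.9 to 2.44, 2.31 and 2.46 on Armi depletion (log2 difference -1.79 ± 0.28 SE; limma, adjusted p = 1.54e-08). Copia1 went from 429 and 557 to 154 and 160 and from 252, 239 and 173 to 11.2, 9.50 and 9.60 (difference -1.44 ± 0.26 SE; limma, adjusted p = 9.05e-07). Both were left at about the median share without Armi (relative ratios 1.02 and 1.05) and at 0.302 and 0.389 without flamenco.

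gypsy3_new (-1.76), the BEL/Pao element diver2 (-1.64), 3S18 (-0.92) and a Copia-type element, with 1731's difference at -1.37, completed these 6. For 3S18 the relative ratio on flamenco silencing was near 1 (0.997 and 1.06), and the difference came with one of the highest relative ratios on Armi depletion (1.66, 1.82 and 1.83). Without the day 6 library it was -0.77 and did not pass. The split depended on the centre here too. It was 9 lower and 3 higher with the median over shared elements, 8 and 3 with the median over both strands, and 3 and 23 scaled to total coverage without roo. BS, diver2 and gypsy3_new stayed lower under all of these and a median on the log2 scale with 0.1 added. With the median coverage over positions, diver2 no longer passed (-3.47). Without the day 6 library 5 elements were lower and 2 higher, and without the third siLuc library 13 and 5.

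Relative to the medians, sense piRNAs of 3 elements were kept better on flamenco silencing than on Armi depletion. Quasimodo, an errantivirus, had sense coverage of 18.3 and 18.3 in Gal4, 91.6 and 65.8 in Gal4-Panx-IDR, 26.9, 25.02 and 20.03 in siLuc and 1.85, 1.82 and 1.84 in siArmi cells. Its relative ratios were 6.12 and 4.39 against 1.77, 1.74 and 1.76, above the median in every library of both experiments (log2 difference 1.47 ± 0.28 SE; limma, adjusted p = 2.7e-06). Stalker2 went from 37.9 and 45.5 to 197 and 171 and from 17.7, 17.4 and 14.2 to 1.96, 2.46 and 2.07, so that it had the highest relative ratio of all 37 elements in both experiments (5.39 and 3.03). The difference of Stalker2 was 0.77 ± 0.28 (SE; limma, adjusted p = 0.0189), and it was lost without the first Gal4 (0.68), the day 6 (0.77), the first siArmi (0.70) or the third siArmi library (0.74). The LINE Juan went from 62.7 and 59.0 to 103 and 96.5 and from 40.1, 38.9 and 30.1 to 1.36, 1.66 and 1.23 (difference 1.06 ± 0.28 SE; limma, adjusted p = 0.000956). Across the 37 elements Pearson's r of the 2 log2 relative ratios was 0.48, and 0.16 without Quasimodo and Stalker2.

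Within a library, an element's ratio of antisense to sense coverage depends on scaling only through the 0.1 added to each strand. This ratio was compared for the 24 elements with a control mean of at least 10 on both strands in both experiments. On flamenco silencing it rose for 9 elements (37.5%) and fell for 8 (33.3%), and on Armi depletion it rose for 7 (29.2%) and fell for 6 (25%). The change differed between the experiments for 14 elements: 7 moved more toward antisense (29.2%) and 7 more toward sense (29.2%) on flamenco silencing. Over all elements together, the antisense share of the signal was 90.2% ± 0.4 in Gal4 against 85.4% ± 1.4 with Gal4-Panx-IDR (SD over 2 libraries each), and 91.5% ± 0.1 in siLuc against 92.4% ± 0.6 in siArmi cells (SD over 3 libraries each). Without roo the shares were 90.2%, 80.3%, 91.4% and 92.2% in the same order.

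On mean coverage, roo moved furthest toward antisense. The log2 strand ratio of roo, antisense over sense, was 3.29 and 3.16 in Gal4, 7.53 and 7.997 in Gal4-Panx-IDR, 4.38, 4.31 and 4.32 in siLuc and 5.37, 5.37 and 5.46 in siArmi cells. The change was 4.54 ± 0.14 on flamenco silencing and 1.06 ± 0.12 on Armi depletion, with a difference of 3.48 ± 0.19 (SE; limma, adjusted p = 4.62e-14). Both treatments moved roo toward antisense, and on Armi depletion its sense relative ratios were 0.548, 0.516 and 0.499. For invader2 the log2 ratio went from -0.85 and -0.80 to 1.96 and 2.55 on flamenco silencing, so that a mainly sense element became mainly antisense, and from 0.01, 0.18 and 0.16 to 0.27, 0.29 and 0.29 on Armi depletion (difference 2.91 ± 0.22 SE; limma, adjusted p = 5.73e-11). Copia1 (1.58), Tc1-2 (1.21), Repbase_DNAREP1 (0.87) and 3S18 (0.78) followed. Of these, Copia1, Tc1-2 and Repbase_DNAREP1 also passed in the separate test of the change on flamenco silencing. In that of Armi depletion, Repbase_DNAREP1 rose (0.37 ± 0.12 SE) and 3S18 fell (-0.48 ± 0.15 SE).

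Quasimodo moved furthest toward sense, with a log2 ratio of 6.62 and 7.12 in Gal4, 2.80 and 3.39 in Gal4-Panx-IDR, 5.55, 5.71 and 5.52 in siLuc and 4.69, 4.42 and 4.38 in siArmi cells. Its change was -3.77 ± 0.18 on flamenco silencing and -1.10 ± 0.15 on Armi depletion (difference -2.68 ± 0.23 SE; limma, adjusted p = 4.83e-10). Stalker2 behaved alike, with changes of -3.05 ± 0.16 and -1.87 ± 0.13 (difference -1.18 ± 0.21 SE; limma, adjusted p = 2.56e-05). In both elements every treated library lay below every control library of its experiment. Juan and springer moved toward sense on flamenco silencing (-1.83 and -1.56), while on Armi depletion their changes were -0.10 ± 0.15 and -0.13 ± 0.11 (SE; limma, adjusted p = 0.615 and 0.343).

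With 0.1 added to each strand, the strand change of copia was close in size in both experiments. For copia, whose piRNAs are nearly all sense, the log2 ratio rose by 0.97 ± 0.17 on flamenco silencing and by 0.95 ± 0.14 on Armi depletion (difference 0.02 ± 0.22 SE; limma, adjusted p = 0.922). The antisense share of copia was 1.36% in Gal4, 2.60% in Gal4-Panx-IDR, 1.22% in siLuc and 2.09% in siArmi cells. copia's difference depended on the added value and was -0.91 with 1 in place of 0.1. 17.6's ratio rose on Armi depletion (0.57 ± 0.12) and did not pass on flamenco silencing (difference -0.72 ± 0.19 SE; limma, adjusted p = 0.00285). Repbase_FB4 fell on flamenco silencing (-0.44 ± 0.17) and did not pass on Armi depletion (difference -0.63 ± 0.22 SE; limma, adjusted p = 0.0146). The difference no longer passed for Repbase_FB4 without the second siLuc library (-0.61) and for 3S18 without the first (0.77). With 1 added in place of 0.1, 17.6's difference was -0.04 and no longer passed. Across the 24 elements Pearson's r of the 2 changes was 0.73, and 0.36 without Quasimodo, Stalker2 and roo. With the median over positions in place of the mean, 3 elements moved more toward antisense and 4 more toward sense. roo's difference was then 0.19 and no longer passed. Nor did those of invader2 (1.77), Copia1 (3.74), Tc1-2 (0.74), Repbase_DNAREP1 (0.62) and 3S18 (0.42). On the other side, Juan (-2.73), Stalker2 (-4.68) and Repbase_FB4 (-0.51) no longer passed.

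**Figure D4:**
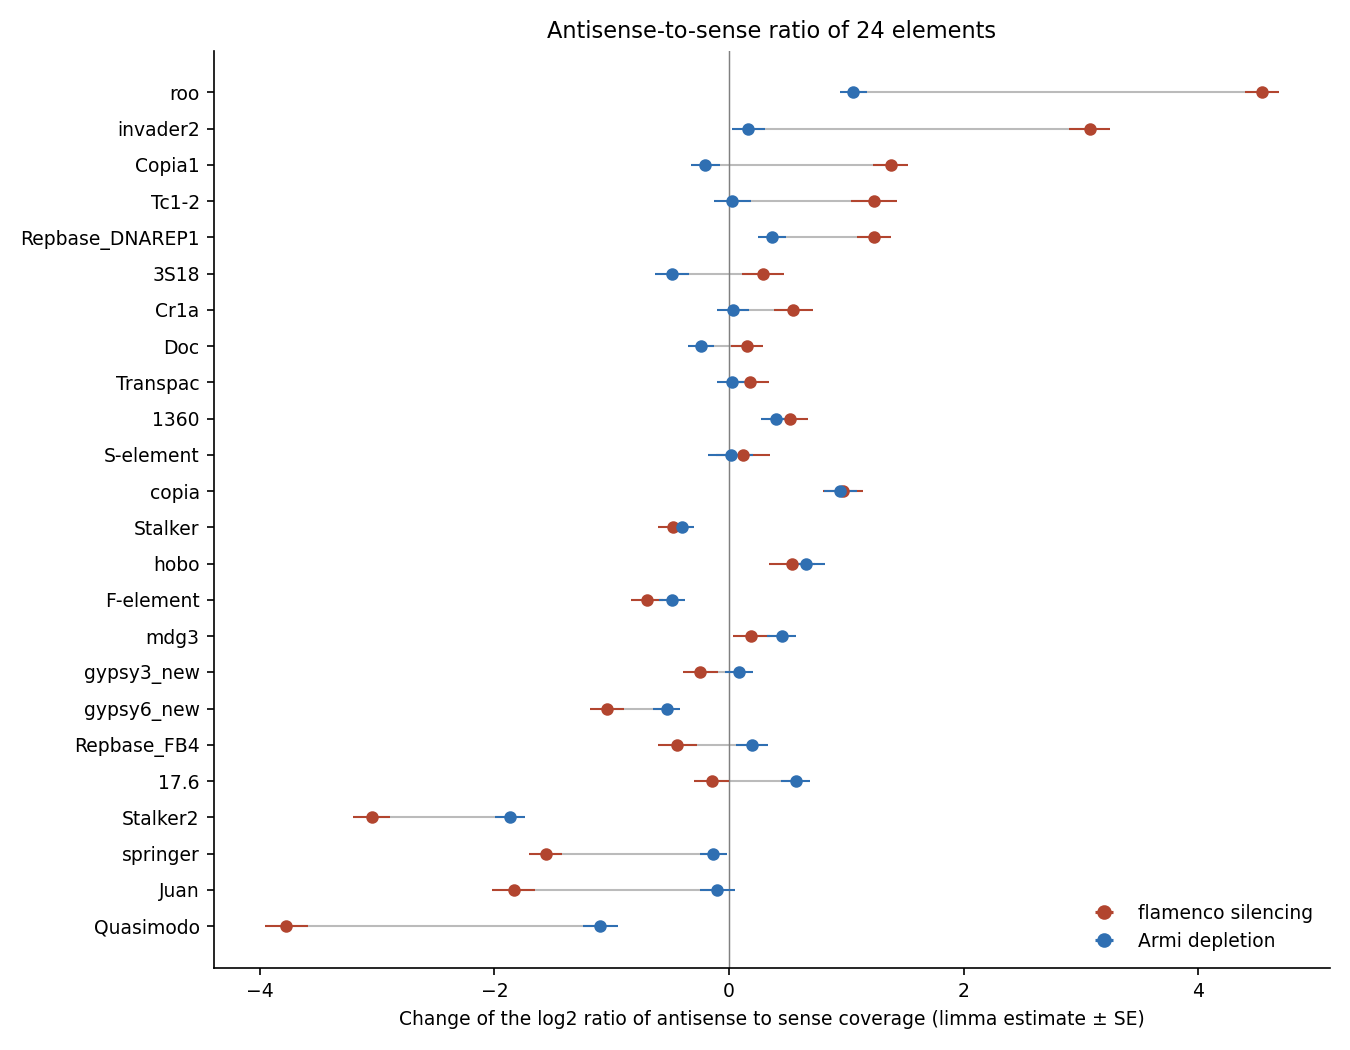
Change of the log2 strand ratio (antisense over sense coverage) on flamenco silencing and on Armi depletion for 24 elements (limma estimate with its SE as a bar), ordered by the difference between the experiments. roo lies at 4.54 and 1.06 at the top, copia at 0.97 and 0.95 in the middle, and Quasimodo at -3.77 and -1.10 at the bottom.

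Along single elements, some were lost more unevenly from one end to the other in one experiment than in the other. Antisense coverage was compared in 1892 windows of 100 nt, each with a control mean of at least 100 in both experiments, of the 35 elements with at least 10 such windows. The median over elements of the standard deviation of the log2 window ratio was 0.20 on flamenco silencing and 0.24 on Armi depletion, while control libraries gave 0.13 in Gal4 and 0.06 to 0.08 in siLuc. On group means the spread was larger on flamenco silencing for 18 of the 35 elements. In single libraries the median was 0.22 and 0.24 on flamenco silencing and 0.31 to 0.33 on Armi depletion. The spread of both flamenco libraries exceeded that of every siArmi library for 6 elements and lay below it for 17, and the libraries overlapped for 12. The median window held at least 71 reads in siArmi and at least 211 in Gal4-Panx-IDR libraries at the median element. This comparison has no test, and the part of read depth in it was not tested.

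Stalker2, Doc and roo were more uneven on flamenco silencing, with standard deviations of 0.82, 0.68 and 1.48, against 0.32, 0.28 and 0.34 on Armi depletion. In 10 parts of near-equal length along the Stalker2 consensus, 26.1% and 30.2% of antisense coverage was left in nt 1 to 800 at day 6 and day 7, and 28.8% and 33.1% in nt 7001 to 7672. Between them, 125% and 115% was left in nt 3901 to 4700. On Armi depletion 2.64% to 4.58% was left in all 10 parts. Over its whole length, the antisense relative ratio of Stalker2 was 0.839 on flamenco silencing and 0.792 on Armi depletion, so an element with like values in both experiments held a block that was kept and flanks that were lost on flamenco silencing.

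Doc showed a step rather than a central block. In nt 1 to 2400, 87.1% to 102% was left in the Gal4-Panx-IDR libraries in each of 5 parts, and in nt 2901 to 4700 it was 33.7% to 37.8% in each of 4 parts, with 72.8% and 65.1% in the part between. On Armi depletion the parts of Doc ranged from 2.76% to 4.30%. The coverage of the control was uneven as well, at 283 to 714 in the first 6 parts and 2454 to 4042 in the last 4 in Gal4 cells. For roo, 101% and 98.6% was left in nt 6401 to 7300 and 1661% and 1966% in nt 8201 to 9092, and on Armi depletion the parts of roo ranged from 4.53% to 7.25%.

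The errantivirus gypsy showed the reverse. The standard deviation for gypsy was 0.15 on flamenco silencing, near the 0.12 between its control libraries, and 0.65 on Armi depletion (0.68, 0.79 and 0.63 in the 3 libraries). Windows of gypsy kept 30.7% to 48.8% on flamenco silencing. On Armi depletion the lowest window (nt 901 to 1000) kept 0.595% and the highest (nt 101 to 200) 5.74%. Of 2 further errantiviruses, 297's standard deviations were 0.14 and 0.39 and 17.6's were 0.12 and 0.36. 297's 3 siArmi libraries kept 4.49%, 3.54% and 4.10% in nt 701 to 1400 and 2.55%, 1.71% and 1.47% in the next part, nt 1401 to 2100.

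**Figure D5:**
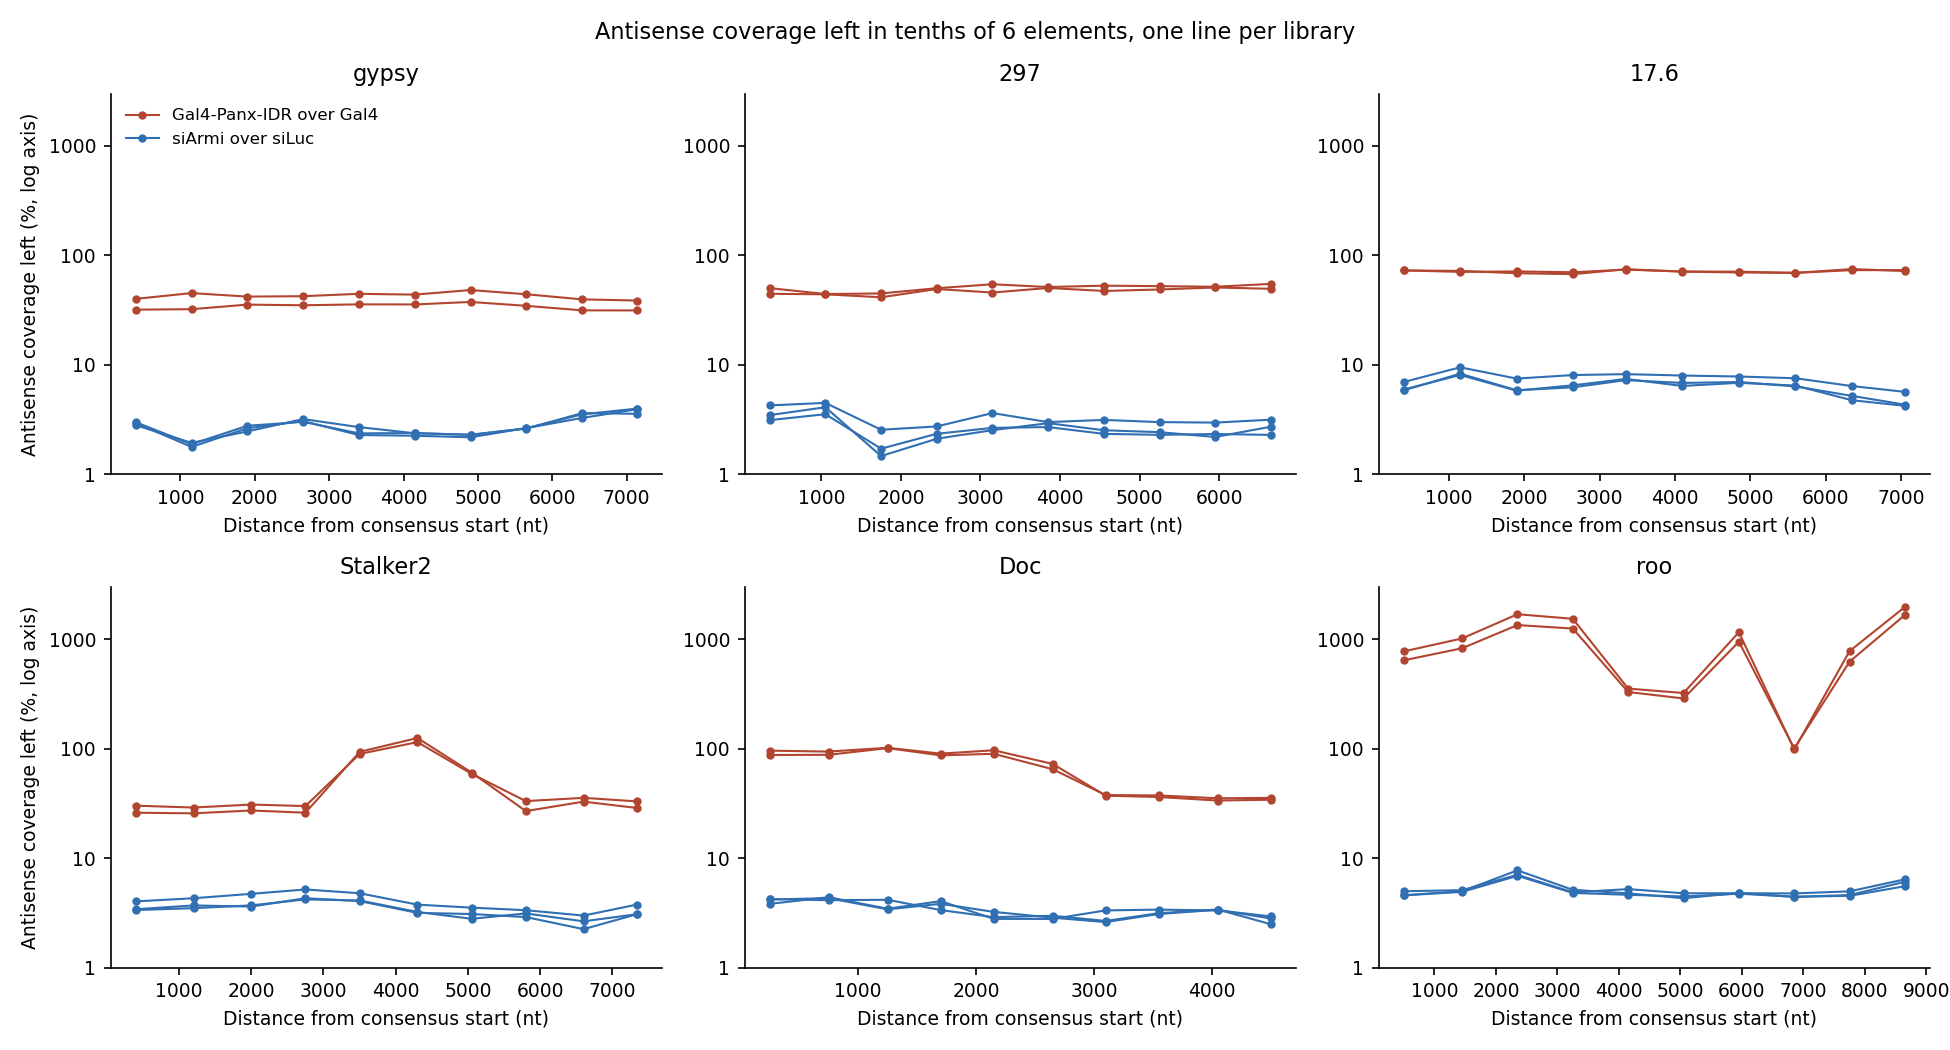
Percent of antisense coverage left in 10 parts along the consensus of 6 elements, with 1 line for each Gal4-Panx-IDR library over the Gal4 mean and each siArmi library over the siLuc mean (log axis; distance from the consensus start in nt). The Stalker2 lines on flamenco silencing rise from 26.1% and 30.2% in the first part to 125% and 115% in the part at nt 3901 to 4700, while the siArmi means stay between 2.64% and 4.58%.

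Elements that were better kept on flamenco silencing tended to have fewer antisense piRNAs to begin with. Across the 66 elements the log2 relative ratio on flamenco silencing had a Pearson's r of -0.43 (Spearman's rho -0.45) with the log2 antisense coverage in Gal4 cells, and of -0.38 (rho -0.53) with the antisense share in siLuc cells. For the relative ratio on Armi depletion the values were -0.13 (rho -0.09) with siLuc coverage and 0.09 (rho 0.17) with the antisense share. The consensus length had an r of -0.29 with the first and 0.03 with the second. These are descriptions over elements that share libraries, and a ratio shares its control with the coverage it is set against.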

How the data were processed

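Argonaute-bound small RNAs of 10 OSC libraries were isolated on TraPR columns. Reads of 24 to 35 nt were mapped by the authors to consensus sequences of transposons using Bowtie with at most 2 mismatches, and those with 1 hit, or at most 2 within a single consensus at a weight of 0.5, were retained. Reads that fit near-identical families equally well are therefore left out, and values of such relatives are uncertain. The deposited values are signal, the coverage of each position of 122 elements per 1000000 miRNA reads, and the other deposited coverage values are those of the antisense strand, written below 0, whose size was used. The 3′ adaptor of the siRNA libraries differed from that of the tethering libraries.

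From these, the mean coverage per element, strand and library was computed. limma 3.58.1 in R 4.3.3 was fitted on log2(mean coverage + 0.1) with a trend to all 10 libraries and 4 conditions, for elements with control means of at least 10. The log2 median ratio of each experiment was subtracted from its treated libraries, and the interaction was tested, with Benjamini-Hochberg adjustment within each of 5 tests at 0.05. Fold changes of elements near 0.1 are understated. The strand test used the log2 of antisense over sense coverage per library, with 0.1 added to each. Tables and figures used Python 3.11.15, numpy 2.4.6, pandas 2.3.3 and matplotlib 3.10.9. The fits were tested on simulated data. Coverage is not a count, so no count model was used, and miRNA read numbers were derived from the smallest steps of the values. No 2 libraries of a group agreed within sampling noise.

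The members, element classes and lists were chosen with earlier results of these data known. Elements named are those the study names with their piRNAs, the 6 largest differences in each direction and test, and the element with most antisense control coverage in each class. Elements named outside this rule (those of the lists, of the kept calls and of the extremes, McClintock, G2, 297, opus and 17.6 along its length) were chosen after their values were seen. Alternatives were other pseudocounts (0.01, 1 and 10), minima, scalings, weights, a replicate block and leaving out each library. Sequences were not used here.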

Additional observations from a re-analysis of the deposited data

Results flagged for a closer look

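Signal was also found in coverage that the comparisons left out, at elements with a control mean below 10 that stood at 10 or more in Gal4-Panx-IDR cells with separate libraries. On the sense strand these were mdg1, from 8.13 ± 3.04 in Gal4 to 1023 ± 137 (SD, n = 2 each), Tabor, from 3.57 ± 0.41 to 114 ± 6.0, and Dm88, from 8.998 ± 0.072 to 18.4 ± 3.8, while 412's coverage went from 1.89 ± 0.13 to 40.4 ± 3.5. On the antisense strand it was the LINE G5, from 7.15 ± 0.98 to 13.1 ± 0.4. On Armi depletion 0 elements did so on either strand. Medians of 4.70% (antisense) and 4.35% (sense) of coverage were left there, so this count could hardly differ and gives no contrast. Of the 17 elements left out on the sense strand because coverage was below 10 in siLuc alone, gypsy went from 12.04 ± 0.51 in Gal4 to 142 ± 14 in Gal4-Panx-IDR cells and blood from 27.5 ± 4.0 to 126 ± 2.5 (SD, n = 2 each), with 69.8% and 27.7% left on Armi depletion. Both were chosen after their values were seen. Sense coverage of mdg1 was 2.55 ± 0.18 in siLuc and 2.32 ± 0.20 in siArmi cells (SD, n = 3 each), so that 91.1% was left, while 12.1% was left for Tabor, 4.13% for Dm88 and 35.15% of 412's. These values carry no test, and the fewest reads behind them in a siArmi library were 270.0 for mdg1, 36 for Tabor and 7 for Dm88, with 412's at 32.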

How the results depend on the processing

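The direction of a call depended on the centre and the pseudocount, which moves weakly covered siArmi values. A pseudocount of 0.01, a fit with no trend and weights per experiment kept all counts of calls within 1.5 times, and of all values recomputed 1104 kept direction and side of the threshold, 51 no longer passed, 43 newly passed and 57 turned sign. The alternatives with the median on the log2 scale were chosen after seeing the data. By construction, without a subtracted median every element carries the difference between the medians, and a pseudocount raises the siArmi values, the lowest ones, most; other causes were not tested.

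With no median subtracted, the calls were 0 lower and 66 higher (antisense) and 0 lower and 37 higher (sense). The antisense class medians were 3.04 (Gypsy), 4.34 (BEL/Pao), 4.502 (Copia), 3.66 (LINE) and 4.61 (TIR). The sense class medians were 4.35 (Gypsy), 3.46 (BEL/Pao), 2.95 (Copia), 3.59 (LINE) and 4.502 (TIR). The antisense differences turned sign, being accord's 2.07, gypsy3_new's 2.14, gypsy10_new's 2.17, G6's 2.30, HMS-Beagle2's 2.42, Dm88's 2.45, gypsy's 3.71, mdg1's 2.71, 412's 2.88, springer's 2.82, HMS-Beagle's 3.67 and Helena's 3.27. The sense differences turned sign, being BS's 2.45, gypsy3_new's 2.48, diver2's 2.60, Copia1's 2.79, 1731's 2.86, 3S18's 3.32, roo's 3.92 and Doc's 3.46. With a pseudocount of 1, the calls were 34 lower and 8 higher (antisense) and 21 lower and 1 higher (sense). The antisense difference turned sign, being copia's -0.14. The strand difference turned sign, being copia's -0.91. With a pseudocount of 10, the calls were 53 lower and 2 higher (antisense), 34 lower and 0 higher (sense), 10 lower and 11 higher (strand difference) and 10 lower and 10 higher (strand change on Armi depletion). The antisense differences turned sign, being Tc1-2's -1.64, transib2's -1.35, Repbase_DNAREP1's -0.38, copia's -2.21, mdg3's -0.63 and 1360's -1.65. The sense differences turned sign, being Quasimodo's -1.08, Juan's -1.59, Stalker2's -1.21, mdg3's -1.77 and 1360's -1.66. The strand differences turned sign, being Stalker2's 0.52, 17.6's 1.73, Copia1's -0.29, Repbase_DNAREP1's -0.84, copia's -2.68, mdg3's 0.66 and 1360's -0.47. With a control minimum of 100, the calls were 17 lower and 5 higher (antisense), 4 lower and 0 higher (sense), 0 lower and 0 higher (strand difference), 1 lower and 0 higher (strand change on flamenco silencing) and 2 lower and 0 higher (strand change on Armi depletion). The antisense class medians were 2.14 (BEL/Pao) and -0.42 (LINE). The sense class medians were -0.15 (Gypsy) and -0.55 (Copia). With the median over both strands, the calls were 30 lower and 8 higher (antisense) and 8 lower and 3 higher (sense). The antisense class medians were -1.06 (Gypsy), 0.24 (BEL/Pao), 0.41 (Copia), -0.44 (LINE) and 0.51 (TIR). The sense class medians were 0.25 (Gypsy) and 0.41 (TIR). With the median over positions, the calls were 4 lower and 3 higher (strand difference), 5 lower and 5 higher (strand change on flamenco silencing) and 5 lower and 4 higher (strand change on Armi depletion). The antisense class medians were -1.27 (Gypsy), 1.28 (BEL/Pao) and -0.82 (LINE). The sense class medians were -0.67 (Gypsy), -1.98 (Copia), -1.18 (LINE) and -1.22 (TIR). The antisense difference turned sign, being Dm88's 0.44. The sense differences turned sign, being 3S18's 0.31, copia's -1.31 and springer's -2.25. With the median over shared elements, the antisense class medians were 0.78 (BEL/Pao), 0.94 (Copia) and 0.098 (LINE). With no minimum, the calls were 45 lower and 13 higher (antisense), 69 lower and 8 higher (sense), 21 lower and 27 higher (strand difference), 43 lower and 19 higher (strand change on flamenco silencing) and 56 lower and 29 higher (strand change on Armi depletion). The antisense class medians were -0.27 (Gypsy) and -0.44 (Copia). The sense class medians were 0.33 (Copia) and -0.30 (LINE). Scaled to total coverage without roo, the calls were 11 lower and 21 higher (antisense) and 3 lower and 23 higher (sense). The antisense class medians were -0.25 (Gypsy), 1.05 (BEL/Pao), 1.22 (Copia), 0.37 (LINE) and 1.33 (TIR). The sense class medians were 1.06 (Gypsy), 0.18 (BEL/Pao), -0.33 (Copia), 0.30 (LINE) and 1.22 (TIR). The sense differences turned sign, being 3S18's 0.033, roo's 0.64 and Doc's 0.17. With the median on the log2 scale and a pseudocount of 1, the calls were 13 lower and 8 higher (sense). With that median and a pseudocount of 10, the calls were 24 lower and 21 higher (antisense) and 15 lower and 14 higher (sense). The antisense differences turned sign, being Tc1-2's -0.18, gypsy's 1.25, mdg1's 0.37, 412's 0.56, copia's -0.76, HMS-Beagle's 1.06, Helena's 0.81 and 1360's -0.19. The sense differences turned sign, being Copia1's 0.0037 and Doc's 0.34.

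Leaving out each library in turn gave 14 to 27 lower and 9 to 17 higher antisense calls and 5 to 13 lower and 2 to 5 higher sense calls, with the lowest counts of lower calls without the day 6 library. The class medians then ran from -0.20 to 0.15 (antisense LINE), 0.54 to 0.75 (antisense BEL/Pao), -0.79 to -0.47 (sense LINE), -1.44 to -1.11 (sense Copia) and 0.084 to 0.23 (sense Gypsy), and the median spread along elements from 0.20 to 0.24 on flamenco silencing and from 0.23 to 0.29 on Armi depletion. That spread was 0.17 and 0.19 in windows of 200 nt and 0.30 and 0.32 with a window minimum of 30. Numbers of the siRNA libraries did not pair them (correlations of deviations 0.07, -0.02 and 0.21). With a replicate block there, the calls were 26 lower and 14 higher (antisense), 13 and 3 (sense) and 6 and 6 (strand difference), and the call for Repbase_FB4 was lost (-0.63). Depth limits weakly covered elements: the fewest reads behind a tested element in a siArmi library were 11 on the antisense and 13 on the sense strand.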
